A study of Mus musculus with 4 samples.

Results

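The mouse genes *Olfr462* to *Olfr541* encode odorant receptors, and their level was compared here between the nasal mucosa of young adult and aged mice. Members were taken by number: every gene whose array probe carried an accession that a RefSeq table of the GRCm38.p6 assembly gives a symbol from *Olfr462* to *Olfr541*. This gave 61 genes read by 62 probes, out of 1080 Olfr genes and of 45604 genes tested in all, and the other 1019 Olfr genes served as the comparison. RNA came from nasal mucosa, labelled olfactory epithelium, of C57BL/6J mice with no engineered allele and no treatment named in the study's methods. The groups were young adult mice, 8 weeks old by the labels, and aged mice, 16 months old, with 2 arrays per age and RNA pooled from 5 mice on each array. The labels also carry an entry about silica and lung that neither the sample titles nor the methods bear out, and it was not used. The methods assign fewer mice per age to gene analyses than 2 pools of separate mice require, so it is not known if 2 pools of 1 age had mice in common. Every P value below measures only the spread between pools.

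Odorant receptors are G protein-coupled receptors on the cilia of olfactory receptor neurons (ORNs). Each mature ORN expresses a single receptor gene, chosen from a very large family whose genes lie in clusters on many chromosomes. The amount of a receptor's mRNA in whole mucosa therefore follows the number of ORNs that chose it and the amount of mRNA in each of them, and these cannot be told apart in pooled tissue. A bound receptor activates the G protein that holds *Gnal*, the adenylyl cyclase *Adcy3* and the cyclic nucleotide-gated channel, and the receptor needs chaperones such as *Rtp1* and *Rtp2* to reach the cilia. The odorants that these 61 receptors bind were not part of the data.

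Levels are quantile-normalized intensities of one-color Agilent arrays. A log2 fold change is aged over young adult. A gene was called where limma gave a P below 0.05 and a Benjamini-Hochberg false discovery rate (FDR) below 0.25 over all 45604 genes. Called genes whose mean over the 4 arrays reached 100 and whose fold change in either direction, not on the log2 scale, reached 1.5 were differentially expressed genes (DEGs). The share of spots well above background was 63.1 to 76.8% per array, and no spot was saturated. Young adult array 1 and aged array 1 shared a slide, and the remaining arrays came from separate slides. With 2 arrays against 2, the smallest P that an exact permutation test allows for any gene is 0.333, so calls were made with limma, which borrows spread across genes. The lowest FDR of any gene was 0.0945. *Omp*, the marker of mature ORNs, was at 300826 and 286061 in the young adult pools and at 317836 and 332591 in the aged pools, so the labelled tissue was present on all 4.

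The genes fell into 5 groups on the chromosome order of the RefSeq table, split where the gap between neighbouring members exceeded 1 Mb. The largest held 41 members, *Olfr467* to *Olfr519*, on chromosome 7. A second cluster on chromosome 7 held 14 members, *Olfr522* to *Olfr541*. The remaining members were *Olfr462*, *Olfr463* and *Olfr464* on chromosome 11, *Olfr466* on chromosome 13, and the pair *Olfr520* and *Olfr521* on chromosome 7. Grouping by cluster was part of the design, while the weight given below to the *Olfr522* to *Olfr541* cluster came after the values were known.

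The start regions of 3 receptors of the *Olfr522* to *Olfr541* cluster are given because these genes carried the change with age described below: *Olfr533* had the largest rise, *Olfr530* the next, and *Olfr541* the brightest probe of the called genes. The windows are from RefSeq, GRCm38.p6, with 250 bases before and 50 after the annotated start. Capitals mark the ATG at that start and, in *Olfr530*, a homeodomain motif TAATTA that begins 79 bases before it. The *Olfr533* window is chr7:140465953-140466252 on the + strand, the *Olfr530* window chr7:140373559-140373858 on the - strand, and the *Olfr541* window chr7:140704003-140704302 on the + strand.
Olfr533: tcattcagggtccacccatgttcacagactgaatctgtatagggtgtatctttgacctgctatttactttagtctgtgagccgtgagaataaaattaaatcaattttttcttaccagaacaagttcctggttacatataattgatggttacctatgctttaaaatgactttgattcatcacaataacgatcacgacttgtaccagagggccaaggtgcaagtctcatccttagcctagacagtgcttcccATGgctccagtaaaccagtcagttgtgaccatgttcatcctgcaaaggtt
Olfr530: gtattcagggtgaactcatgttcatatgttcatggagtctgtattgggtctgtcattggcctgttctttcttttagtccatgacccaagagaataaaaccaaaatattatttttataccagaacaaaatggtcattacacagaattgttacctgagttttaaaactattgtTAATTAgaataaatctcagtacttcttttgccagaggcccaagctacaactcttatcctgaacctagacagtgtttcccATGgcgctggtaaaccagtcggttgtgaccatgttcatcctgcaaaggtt
Olfr541: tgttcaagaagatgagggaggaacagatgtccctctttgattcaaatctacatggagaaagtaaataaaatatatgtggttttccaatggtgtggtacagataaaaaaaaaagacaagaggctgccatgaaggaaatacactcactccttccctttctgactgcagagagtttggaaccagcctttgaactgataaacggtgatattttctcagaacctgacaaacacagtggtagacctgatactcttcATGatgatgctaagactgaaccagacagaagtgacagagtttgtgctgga
The first 50 bases from the start of *Olfr533* and *Olfr530* matched at 92% of positions without gaps, the highest of the 36 pairs among the 9 called members with an ATG there, for which the median was 35%. The array's probe sequences were not used here, so whether a probe also reads a related receptor was not tested.

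Windows were found for 57 of the 61 members, and in 53 of them the annotated start is the ATG itself, against 5.83% of all 32851 windows. Most of these windows thus show the bases just before the coding start and need not hold the promoter. TAATTA, which reads the same on both strands, was in 9 of the 57 windows (15.8%), in 18.8% of the windows of other Olfr genes and in 5.29% of all windows. Of the 9 members called higher, *Olfr530* and *Olfr538* had it. The Ebf motif is TCCC and GGGA with any 2 bases between them, a pattern that is also the same on both strands. It was in 0 of the 57 windows, in 0.562% of those of other Olfr genes and in 0.904% of all windows. These are matches of letters and were not tested against the change with age.

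Of the 61 receptors, 9 were higher in aged mice and 0 were lower. Among all genes, 1.65% were called higher and 2.33% lower, and among the other Olfr genes 109 (10.7%) were higher and 40 (3.93%) lower. The share of the 61 called higher was 14.8%, so it lay well above that of all genes and nearer to that of the other Olfr genes. At a P below 0.05 alone, limma gave 13 higher and 1 lower, *Olfr488*. At that limit 2760 of all 45604 genes were higher and 3230 lower, and 210 of the 1019 other Olfr genes were higher and 98 lower. Among DEGs, 7 of the 61 were upregulated (11.5%) and 0 downregulated, against 0.814% and 1.15% of all genes and 6.48% and 1.96% of the other Olfr genes. Both aged arrays lay above both young adult arrays for 23 members (37.7%) and below for 5 (8.2%), against 24.2% and 21.8% of all genes and 35.2% and 20.9% of other Olfr genes. The median log2 fold change was 0.07 over the 61 genes, 0.11 over the other Olfr genes and 0.01 over all genes. No test of the 61 against the other Olfr genes was made, and these shares and medians are descriptions.

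Most of the 61 receptors gave dim signals. The mean over the 4 arrays ranged from 15.0 to 868.5, with a median of 67.0, beside a median of 67.2 for the other Olfr genes. The probes of 20 members were well above background on all 4 arrays, those of 23 on 1 to 3 arrays and those of 18 on none, and levels of these last have no firm value. Of the 9 called, 7 were well above background on all 4 arrays and 2, *Olfr463* and *Olfr527*, were not. The 2 young adult arrays differed by a median of 0.28 (log2) over the members and the 2 aged arrays by 0.22, beside 0.15 and 0.14 over all genes.

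**Figure D1:**
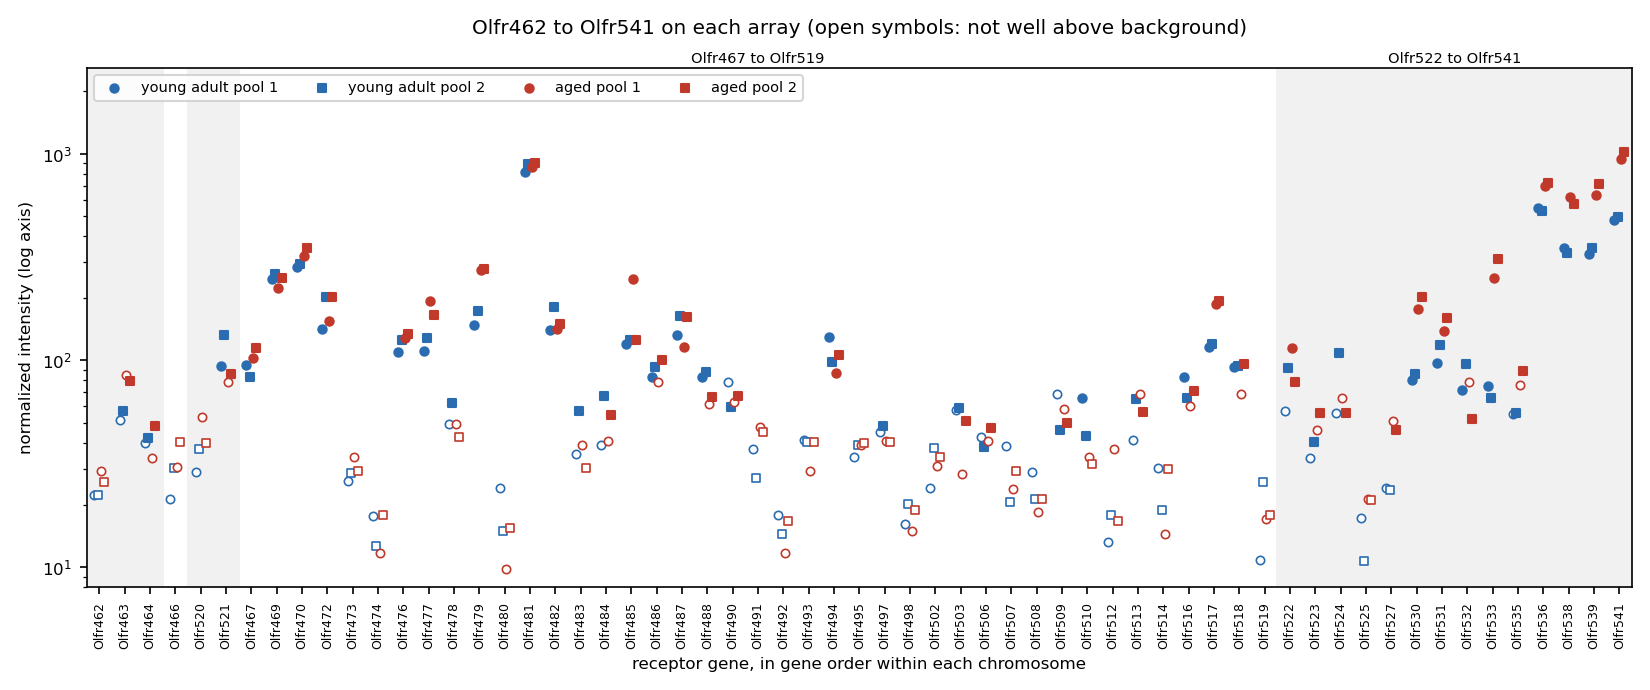
Normalized intensity (log axis) of each of the 61 receptor genes on the 4 arrays, in gene order within each chromosome, with circles for pool 1 and squares for pool 2 of each age, and open symbols where the probe was not well above background. The red symbols of aged mice separate from the blue symbols of young adult mice mainly at the right, from Olfr530 to Olfr541, while Olfr481, near 870, has the 4 symbols together.

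Of the 9 calls, 6 lay in the *Olfr522* to *Olfr541* cluster. There 6 of 14 receptors were called higher (42.9%) and 5 were upregulated DEGs, 12 of 14 had a positive log2 fold change, and the median was 0.61. In the *Olfr467* to *Olfr519* cluster 2 of 41 were called higher (4.88%), 18 had a positive log2 fold change, and the median was -0.08. Both aged arrays lay above both young adult arrays for 11 of the 14 and for 8 of the 41. The clusters also differed in signal. Of the 14, 7 were well above background on all 4 arrays and 1 on none, against 13 and 14 of the 41. Without probes that were not well above background on both arrays of either age, 7 of 9 and 6 of 18 were called in either direction. Calls were then also more frequent over all genes, with 3445 of 29495 called higher (11.7%) and 3706 lower. The cluster medians in that setting were 0.81 and 0.03. The difference between the clusters was not tested.

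**Figure D2:**
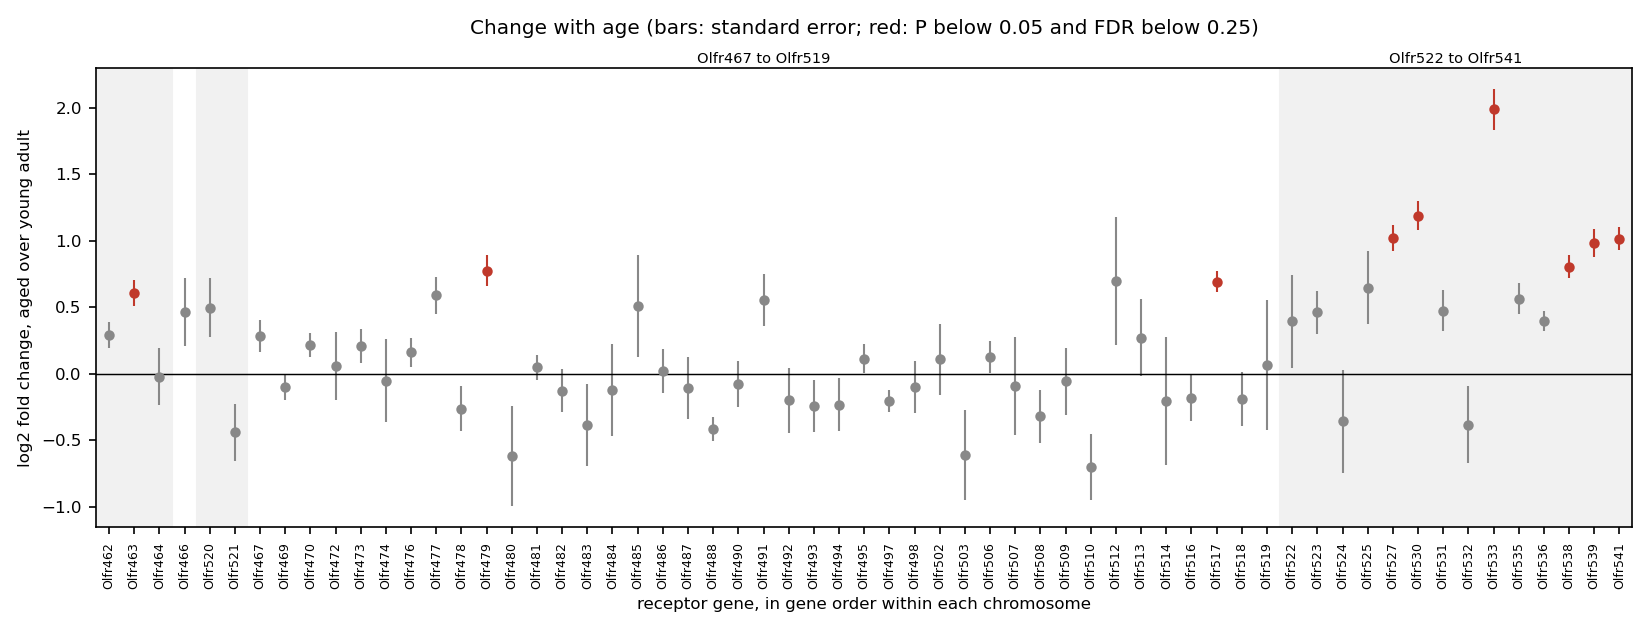
Log2 fold change (aged over young adult) of each of the 61 genes with limma's standard error, in gene order, with the 9 called genes in red. In the Olfr522 to Olfr541 cluster 12 of 14 points lie above 0, and in the Olfr467 to Olfr519 cluster 18 of 41 do.

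*Olfr533* rose the most of the 61 receptors. Its level was 75.03 and 65.7 in the young adult pools and 251.1 and 308.6 in the aged pools, so the ages did not overlap and both aged pools were more than 3 times above either young pool. The log2 fold change was 1.99 with a standard error (SE) of 0.16 (FDR = 0.178, limma). Between the arrays of the shared slide it was 1.74, and between the other arrays 2.23. Over the alternatives of the processing it lay between 1.45 and 2.45.

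*Olfr530*, whose start region resembles that of *Olfr533*, was at 80.7 and 86.3 in young adult mice and at 178.0 and 202.5 in aged mice. The ages were again apart, with a log2 fold change of 1.19 ± 0.11 (SE, FDR = 0.178, limma). *Olfr527*, which lies next to *Olfr525* at the start of the run of rises, was at 24.2 and 23.6 in young adult mice and at 51.1 and 45.9 in aged mice. Its probe did not stand well above background in either young adult pool and did so in 1 of 2 aged pools. The log2 fold change as measured was 1.02 (FDR = 0.178, limma), and the mean was too low for a DEG. With young adult values raised at least to the lowest level well above background on their array, the rise was 1.64-fold. This is not a firm lower bound, since 1 aged pool was not well above background either.

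The called receptors with the brightest probes, all near the end of the cluster, rose by similar amounts. *Olfr541* was at 477.7 and 494.6 in young adult mice and at 945.0 and 1022 in aged mice, which gave a log2 fold change of 1.02 ± 0.09 (SE, FDR = 0.178, limma). *Olfr539* was at 328.8 and 349.3, against 629.2 and 710.2 in aged mice, which gave a log2 fold change of 0.98 ± 0.11 (SE, FDR = 0.185, limma). *Olfr538* was at 348.0 and 331.1, against 614.8 and 572.6 in aged mice, which gave a log2 fold change of 0.81 ± 0.09 (SE, FDR = 0.187, limma). In each of these 3 genes both aged arrays lay above both young adult arrays, by far more than the arrays of an age differed. For these 3 genes the log2 fold change moved little with the processing, from 0.95 to 1.03 for *Olfr541*, from 0.89 to 1.04 for *Olfr539* and from 0.72 to 0.82 for *Olfr538* over the alternatives other than leaving out an array.

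A further pair in this cluster lay just outside the FDR limit. *Olfr536* was bright, at 544.2 and 529.5 in young adult mice and at 693.6 and 719.2 in aged mice, with a log2 fold change of 0.40 and an FDR of 0.255 by limma. *Olfr535* was at 54.9 and 55.9 against 75.7 and 88.8, with a log2 fold change of 0.56 and an FDR of 0.264. The ages did not overlap in either gene, and *Olfr535* was not well above background on the first array of each age. *Olfr531*, at 97.2 and 118.1 against 138.2 and 159.9, had a log2 fold change of 0.47 (FDR = 0.373), and its 2 ages did not overlap. *Olfr522*, at 56.7 and 91.7 against 114.5 and 78.2, had a log2 fold change of 0.39 (FDR = 0.684), its ages overlapped, and without young adult array 1 the value was 0.05.

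The members of the cluster with a negative log2 fold change were *Olfr524* and *Olfr532*. *Olfr532* was at 72.3 and 96.3 in young adult mice and at 78.7 and 52.1 in aged mice, which gave a log2 fold change of -0.38 (FDR = 0.637, limma). On the shared slide alone its value was 0.12, so its direction was not settled. *Olfr524* was at 55.9 and 108.5 against 66.0 and 55.9 (log2 fold change -0.36, FDR = 0.735), with a wide gap between the 2 young pools. The 2 remaining dim genes, *Olfr523* and *Olfr525*, had log2 fold changes of 0.46 and 0.65 that were not called.

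The cluster holds 5 further Olfr genes whose numbers fall outside the range, and 3 of them were called higher as well. *Olfr46* was at 334.6 and 350.6 in young adult mice and at 692.9 and 714.6 in aged mice, which gave a log2 fold change of 1.04. *Olfr53* was at 435.3 and 427.5 against 828.5 and 900.2, and *Olfr61* at 181.2 and 168.8 against 343.7 and 326.3, log2 fold changes of 1.001 and 0.94. All 3 had an FDR of 0.178 by limma, and they lie side by side between *Olfr538* and *Olfr539*. *Olfr60* (log2 fold change 0.47, FDR = 0.480) and *Olfr45* (-0.02, FDR = 0.981) were not called. With these genes 9 of the 19 measured Olfr genes of the cluster were called higher (47.4%), and the median log2 fold change of the 19 was 0.65.

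Genes of other families in and around the cluster did not share one direction. *Cd163l1*, a scavenger receptor gene of γδ T cells that lies between *Olfr523* and *Olfr524*, was lower in aged mice, with a log2 fold change of -1.43 (FDR = 0.168, limma). The other such gene inside the cluster, *5830411N06Rik*, had a mean of 34.7 and a log2 fold change of -0.68 that was not called (FDR = 0.563, limma). On the side of *Olfr541*, the next measured gene is *Cyp2e1*, a cytochrome P450, which was higher with a log2 fold change of 0.97 (FDR = 0.178). *Zfp941*, 2 measured genes further on, was higher as well (0.51, FDR = 0.232). The rest of the 5 nearest measured genes on that side, *Syce1*, *Urah* and *C330022C24Rik*, had 0.15, 0.34 and 0.14 and were not called. On the side of *Olfr522* the 5 nearest measured genes, *Fuom*, *Echs1*, *Paox*, *Mtg1* and *Sprn*, lay between -0.11 and 0.07 and were not called.

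**Figure D3:**
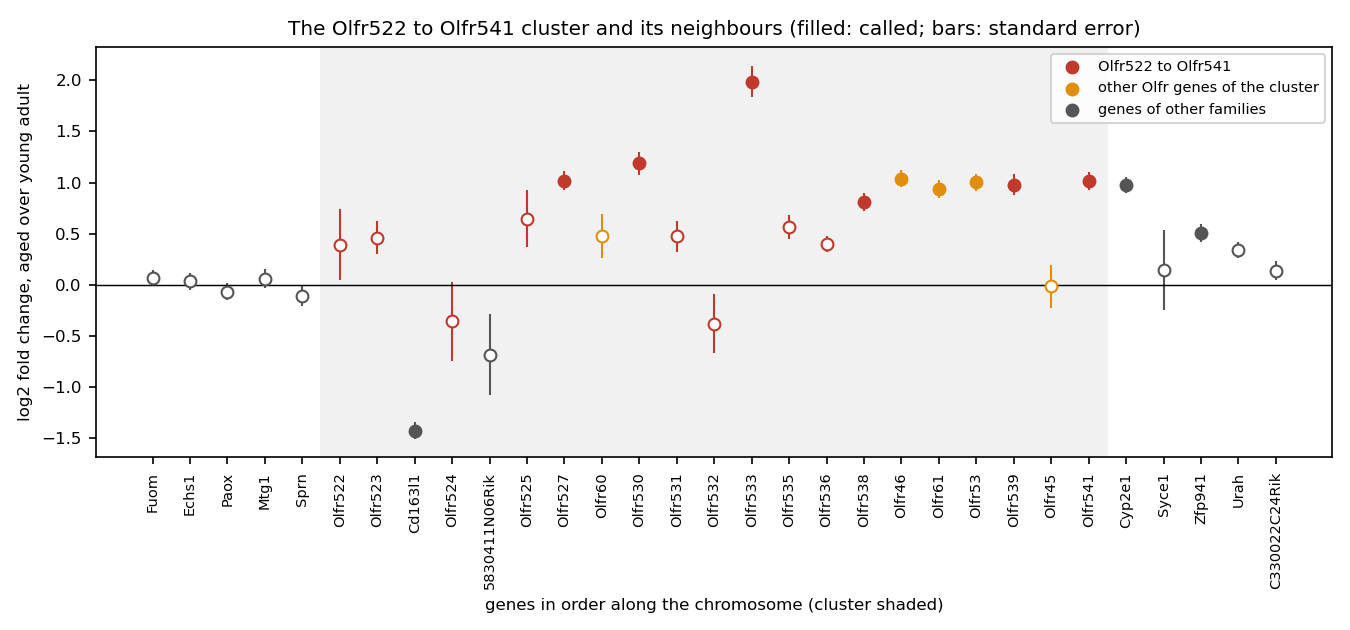
Log2 fold change (aged over young adult) with standard error of each measured gene in order along chromosome 7, for the Olfr522 to Olfr541 cluster (shaded) and 5 measured genes on each side, with filled points for called genes. The called receptors begin at Olfr527 and run to Olfr541, with Cyp2e1 beyond the end of the cluster at 0.97 and Cd163l1 inside it at -1.43.

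All measured Olfr genes were also split into clusters where the gap between neighbouring Olfr genes exceeded 1 Mb. Among the 21 Olfr gene clusters with at least 10 measured genes, the median log2 fold change ran from -0.24 to 0.65. The *Olfr522* to *Olfr541* cluster had the highest median, ahead of the cluster from *Olfr1396* to *Olfr1380* on chromosome 11 (0.60), in which 8 of 18 genes were called higher. The lowest median was that of another cluster on chromosome 7, from *Olfr543* to *Olfr692*, the class I receptors, where 19 of 121 genes were called lower and 1 higher. The cluster that holds *Olfr467* to *Olfr519*, with 66 measured Olfr genes in all, ranked 14 of 21 (0.07). This ranking was made after the values were known and is a description, since the genes of a cluster are related to each other and were read on the same 4 arrays.

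**Figure D4:**
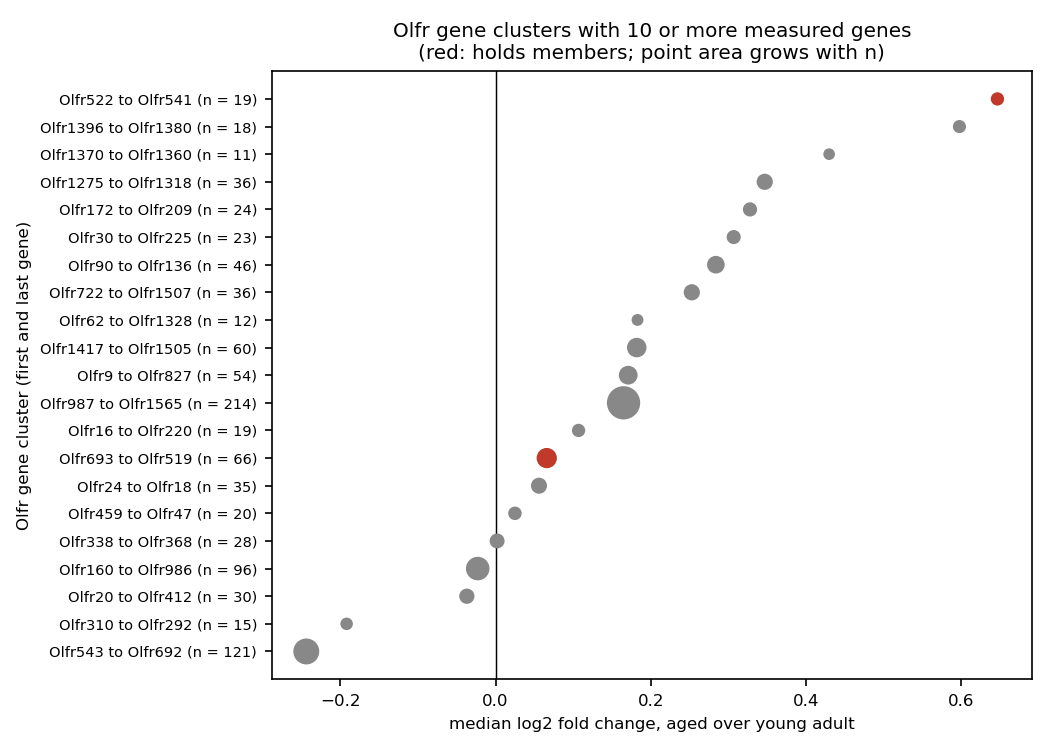
Median log2 fold change (aged over young adult) of each Olfr gene cluster with at least 10 measured genes, named by its first and last gene, with point area growing with the number of genes and red for clusters that hold members. The cluster of Olfr522 to Olfr541 is at the top at 0.65, and the larger cluster with Olfr467 to Olfr519 is at 0.07.

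In the *Olfr467* to *Olfr519* cluster 2 receptors were called higher. *Olfr479* was at 148.3 and 174.2 in young adult mice and at 272.5 and 277.6 in aged mice, which gave a log2 fold change of 0.78 ± 0.12 (SE, FDR = 0.212, limma). *Olfr517* was at 116.4 and 119.4 against 187.6 and 193.5, a log2 fold change of 0.69 ± 0.08 (SE, FDR = 0.188). Both were upregulated DEGs whose ages did not overlap. The 25 other Olfr genes of this cluster held 0 called genes, with a median log2 fold change of 0.19.

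The largest positive values that were not called in this cluster, leaving out dim probes, were those of *Olfr477* and *Olfr485*. *Olfr477*, a close neighbour of *Olfr479* in gene order, was at 110.7 and 128.9 against 193.8 and 166.6 (log2 fold change 0.59, FDR = 0.291, limma), with no overlap between ages. *Olfr485* was at 120.6 and 125.9 against 246.4 and 125.1. Its log2 fold change of 0.51 (FDR = 0.637) rested on the first aged array, and without that array it was 0.02.

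The receptor with the brightest probe, *Olfr481*, did not pass the test. It was at 813.2 and 895.8 in young adult mice and at 859.2 and 905.8 in aged mice, which gave a log2 fold change of 0.05 with a standard error of 0.10 (FDR = 0.860, limma), and the ages overlapped. *Olfr470*, at 283.3 and 293.7 against 320.4 and 348.8, had a log2 fold change of 0.21 (FDR = 0.455). *Olfr469*, at 246.4 and 260.3 against 224.0 and 249.6, had one of -0.10 (FDR = 0.718). Among the bright probes of the 61 genes, high signal was thus found both with a called rise, as for *Olfr541*, and without one. An intensity is not comparable between probes, so these levels do not rank the receptors by mRNA.

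No receptor was called lower. Leaving out dim probes, the largest negative values were in this cluster, in *Olfr521* and in *Olfr532*, which is described above. The dim probes of *Olfr480* and *Olfr503*, also in this cluster, had log2 fold changes of -0.62 and -0.61 (FDR = 0.576 and 0.544, limma). The ages overlapped in *Olfr480* and did not in *Olfr503*. *Olfr510* was at 65.9 and 43.1 in young adult mice and at 34.1 and 31.5 in aged mice, where its probe was not well above background. Its log2 fold change of -0.70 (FDR = 0.401, limma) was -0.41 without young adult array 1 and -0.98 without young adult array 2. *Olfr488* was at 83.2 and 87.8 against 61.5 and 66.7, a log2 fold change of -0.42 with little spread between pools (FDR = 0.274, limma). *Olfr521* was at 93.9 and 133.0 against 78.7 and 86.3 (-0.44, FDR = 0.504), and without young adult array 2 the value was -0.19. In *Olfr510*, *Olfr488* and *Olfr521* each aged pool was below each young adult pool. *Olfr494* was at 129.2 and 98.5 against 87.0 and 105.9 (-0.23, FDR = 0.674), its ages overlapped, and without young adult array 1 the value was -0.04.

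*Olfr488* was called lower under 7 of the alternatives with all probes kept, with offsets of 16 and 50 in the background correction, without that correction, with the scanner's processed signal after quantile normalization, with cyclic loess, with averages on the linear scale and with the slide as a random block at its per-gene correlation. It was also called lower, together with *Olfr510*, when dim probes were left out.

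On chromosome 11, *Olfr463* was called higher and lay just inside the FDR limit. It was at 51.3 and 56.9 in young adult mice and at 85.0 and 79.7 in aged mice, which gave a log2 fold change of 0.61 ± 0.10 (SE, FDR = 0.227, limma). The ages did not overlap, but the probe was well above background on the second array of each age only, and the mean of 68.2 was too low for a DEG. With the slide as a random block its FDR was 0.259 at the pooled correlation of arrays of a slide, and the call was lost. Its neighbours *Olfr462* and *Olfr464* had log2 fold changes of 0.29 and -0.02, and *Olfr462* was not well above background on any array. *Olfr466* on chromosome 13 and *Olfr520* on chromosome 7, likewise at background on all 4 arrays, had 0.46 and 0.50.

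The 1 receptor with 2 probes was *Olfr467*. The first probe was at 124.3 and 123.4 against 152.5 and 151.3, and the second at 73.1 and 55.9 against 69.3 and 86.3. Both probes had a positive log2 fold change, 0.29 and 0.27, and the gene was not called (FDR = 0.458, limma).

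The calls depended on having both pools of each age. Without young adult array 1, young adult array 2, aged array 1 or aged array 2, the calls at these limits were lost for the members and for all other genes. In each of these fits 1 age had only 1 array. The sizes held: over these 4 fits the log2 fold change of the 9 called members stayed positive, between 1.81 and 2.17 for *Olfr533* and between 0.54 and 0.68 for *Olfr463*. The median of the 14 receptors from *Olfr522* to *Olfr541* lay between 0.66 and 0.70 in these fits, and between 0.35 and 0.81 over all alternatives, the upper value being that of the 9 genes left when dim probes were removed. On the 2 arrays of the shared slide, all 14 were positive, with a median of 0.65. Between the remaining arrays 11 of the 14 were positive, with a median of 0.73. The median of the 41 from *Olfr467* to *Olfr519* had no settled sign: it was 0.04 without young adult array 2, 0.09 without aged array 1 and -0.16 without aged array 2.

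**Figure D5:**
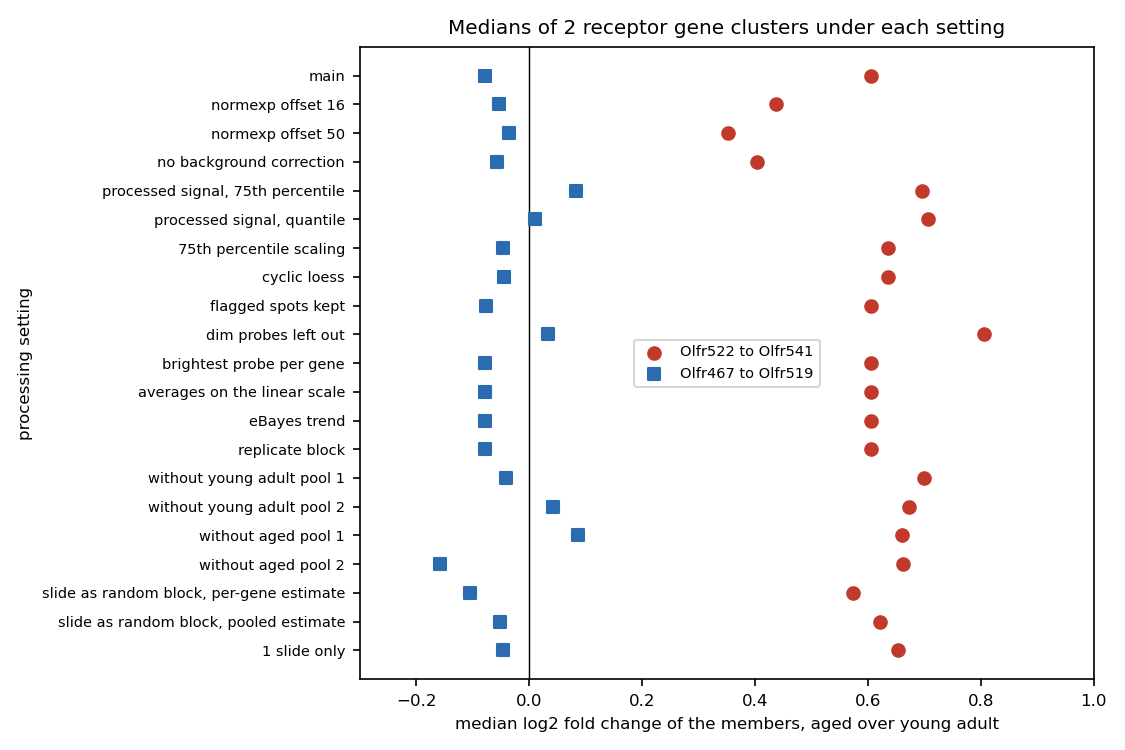
Median log2 fold change (aged over young adult) of the 14 members from Olfr522 to Olfr541 (red circles) and the 41 members from Olfr467 to Olfr519 (blue squares) under each processing setting, with 9 and 18 of them measured when dim probes were left out. The red circles lie between 0.35 and 0.81 and the blue squares between -0.16 and 0.09 under the settings shown.

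Genes of mature ORNs also had higher values in aged mice. Of a list of 14 mature ORN markers, all 14 had both aged arrays above both young adult arrays, a separation that 24.2% of all genes had, with a median log2 fold change of 0.23, and 1 (7.14%) was called, *Stoml3* (0.43, FDR = 0.244, limma), where 1.65% of all genes were called higher. *Omp* had a log2 fold change of 0.15 (FDR = 0.549) and *Gnal* one of 0.05 (FDR = 0.810). The summed level of the list was 639732 and 630282 in young adult mice, against 703215 and 709949 in aged mice. The summed level of the 14 receptors from *Olfr522* to *Olfr541* was 2266 and 2402 against 3903 and 4093, that of the 41 from *Olfr467* to *Olfr519* was 3814 and 4078 against 4107 and 4315, and that of the other Olfr genes 155790 and 164392 against 172646 and 175412. All 4 sums were higher on both aged arrays. Bright probes weigh most in a sum, and 23 of the 41 receptors from *Olfr467* to *Olfr519* had a negative log2 fold change. The part of the mature ORN genes in the receptors' changes was not tested.

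Downstream of the receptor, 2 of 19 olfactory transduction genes were called higher (10.5%, against 1.65% of all genes) and 0 lower, with a median log2 fold change of 0.21. They were *Pde4a*, a phosphodiesterase that breaks down cyclic AMP (0.45, FDR = 0.249, limma), and *Stoml3*, a stomatin-like protein of the cilia. At a P below 0.05 alone, limma gave 6 of the 19 higher and 0 lower, beside 2760 of all 45604 genes higher and 3230 lower. *Stoml3* is also the gene called on the mature ORN list. The 2 lists share further genes, among them *Omp*, *Gnal* and *Adcy3*, so they are not independent. *Adcy3*, the cyclase itself, had 0.32 (FDR = 0.289). Of 18 genes of receptor trafficking and receptor choice, 0 were called higher and 1 (5.56%, against 2.33% of all genes) lower, *Rtp4*, with a log2 fold change of -0.71 (FDR = 0.185), and the median was 0.05. The chaperones *Rtp1* and *Rtp2* had 0.14 and 0.12, and *Lhx2* and *Ldb1*, which bind the enhancers of receptor genes, had 0.08 and 0.06, none of them called.

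Marker lists of other cell types were read on the same arrays, on which 1.65% of all genes were called higher and 2.33% lower. Of 10 immature ORN genes 1 (10%) was lower, *Dpysl3* (-0.40, FDR = 0.247, limma), and 0 higher, with summed levels of 89422 and 88599 in young adult mice against 84036 and 83840 in aged mice. Of 10 basal and progenitor genes 4 (40%) were lower, *Kit*, *Krt5*, *Mki67* and *Top2a*, and 0 higher, with sums of 37302 and 37282 against 30602 and 29975. Of 6 fibroblast genes 4 (66.7%) were lower, *Col1a1*, *Col1a2*, *Col3a1* and *Lum*, with a median log2 fold change of -1.11 and sums of 248179 and 223497 against 124423 and 116395. Of 8 sustentacular genes 1 (12.5%) was higher, *Cyp1a2*, and 0 lower. Their median log2 fold change was 0.03, with sums of 876794 and 864975 against 839511 and 840358. Of 9 respiratory and ciliated genes *Muc5b* was higher and *Muc5ac* lower (11.1% each), and 7 of the 9 had a negative log2 fold change (median -0.055). The sums were 540399 and 542879 against 574827 and 596162. Most of each sum was *Bpifa1*, at 320694 and 323662 against 356539 and 377561 (not called). Of 8 vomeronasal genes 1 (12.5%) was higher, *H2-M10.3* (log2 fold change 1.73, FDR = 0.168, limma), and 3 had no array well above background. The sums were 7690 and 7400 against 8143 and 8176, while 5 of the 8 genes had a negative log2 fold change (median -0.07). *H2-M10.3* itself went from 686.5 and 682.1 to 2183 and 2357. The part of these cell types in the receptors' change was not tested.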

How the data were processed

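Agilent one-color arrays (4, with 62976 spots each) were hybridized by the authors with pooled RNA and read with Feature Extraction 11.0.1.1. The deposited values are, per spot, a median intensity, a median local background intensity, a processed intensity and flags, not normalized between arrays. The deposited value table equalled the processed intensity for all spots, and the submitters' notes name R 3.2.1. The arrays' design uses build mm9.

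Here normexp with an offset of 0 (limma 3.58.1, R 4.3.3) removed the local background. Control and outlier-flagged spots were left out, repeated spots were averaged, quantile normalization followed, and log2 values of a gene's probes were averaged. A RefSeq table (GRCm38.p6) named 32994 of 56605 probes, and 12 genes without a value on every array, none of them a member, were dropped. Ages were compared by lmFit and eBayes across the 4 arrays with no covariate, and the fit was tested on simulated data. The number of arrays limits the precision.

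The members and gene lists were chosen with earlier results of these data known. Receptors were named if called, among the 8 brightest, among the 5 largest rises or falls not called whose probe was well above background on both arrays of an age, or next to the FDR limit; the other members of the *Olfr522* to *Olfr541* cluster, *Olfr466*, *Olfr520* and the neighbours of *Olfr463* were named after their values were seen. Protein sequences were not used here. The alternatives were other background offsets (16 and 50) or none, the processed intensity, other scalings, flagged spots kept, dim probes left out, the brightest probe per gene, linear averages, an intensity trend, the replicate number as a block, the slide as a random block (added after seeing the data), the shared slide alone, each array left out, and other FDR, P and fold limits.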

Additional observations from a re-analysis of the deposited data

How the results depend on the processing

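Of the 9 members called higher, all 9 were called under each background, scaling, averaging, flag and trend setting tried, except 75th-percentile scaling (7 of the 9, with 9 members called) and the processed signal at the 75th percentile (7 of the 9, with 8 called). Of all genes, 1.28% and 1.41% were called higher in these last settings, in that order, and 1.65% in the main fit. The processed signal after quantile normalization called 14 members higher and 1 lower, and 179 other Olfr genes higher and 71 lower (main counts 9, 0, 109 and 40). Calls were more frequent over all genes there too, with 4.45% called higher. Members called lower numbered 1 with an offset of 16, an offset of 50, no background correction, cyclic loess and linear averages, and 2 with dim probes left out. All genes called lower numbered 1691, 2475, 2239, 1378, 1599 and 3706 in these settings, in that order, and 1063 in the main fit. Other Olfr genes called higher and lower numbered 177 and 72 with an offset of 50, 166 and 71 without background correction, 167 and 103 with dim probes left out (28 of 61 members tested, median of members 0.187), and 183 and 82 with an intensity trend. The share of all genes called higher was 4.62, 3.92, 11.7 and 7.92% in these settings, in that order. With the processed signal at the 75th percentile the median log2 fold change was 0.333 for members and 0.233 for other Olfr genes, where that of all genes was 0.066. At an FDR below 0.05 there were 0 members higher and 0 other Olfr genes higher or lower by limma, and at a P below 0.05 alone 1 member and 98 other Olfr genes were lower and 210 other Olfr genes higher. Of all 45604 genes, 3230 were lower and 2760 higher at that P. With a fold limit of 2, there were 3 upregulated DEGs among the members. Over the 4 fits that leave out an array, counts of members and of other Olfr genes called and of DEGs were 0 to 0, the median of members 0.040 to 0.202 and that of other Olfr genes 0.027 to 0.159. *Olfr481*, at 0.048 with all arrays, ran from -0.022 (without young adult array 1) to 0.117. With the replicate number as a block, 0 members and 0 other Olfr genes were called higher, 0 other Olfr genes lower and 0 members were upregulated DEGs. In that setting 0 of all 45604 genes were called in either direction. Same-numbered arrays did not deviate together (r = -0.078 over genes), so the numbers were not taken to pair samples. With the slide as a random block, chosen after seeing the data, limma's own estimate gave no value for 4 arrays. Its formula applied per gene gave a correlation of 0.265, with 66.1% of genes at the bound, and called 12 members higher and 1 lower, and 169 other Olfr genes higher and 71 lower. The deviations pooled over genes gave -0.156 and 8 members higher (*Olfr463* was lost), with 25 other Olfr genes lower. Of all genes, 3.89% were called higher with the per-gene value and 1.05% with the pooled one. The cause of these changes was not tested, and 18 of the 61 members had no signal well above background to compare.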
